A study of Mus musculus with 6 samples.

Results

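The 10 genes described here encode the enzymes and regulators that make, break down and limit the polyamines in the mouse: Odc1, Azin1, Oaz1, Oaz2, Amd1, Srm, Sms, Sat1, Smox and Paox. They were chosen by name, as the core of the pathway, with earlier results of these data known. All 10 were found by gene identifier among the 57180 genes of the deposited tables. Total kidney RNA had been sequenced from 6 wild-type male C57BL/6J mice that were 7 weeks old when obtained. The 3 vehicle mice had received deionized water (0 mg/kg), and the 3 nanoplastic mice cationic polystyrene nanoparticles at 200 mg/kg, by mouth once a day for 6 weeks in both groups. Each library came from the kidney of 1 mouse. The replicate error therefore holds the variation between animals together with that of tissue sampling and library preparation, which cannot be told apart. Whole kidney mixes all segments of the nephron with vessels and immune cells.

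Polyamines are small, positively charged molecules that bind nucleic acids and are needed for translation and growth. Ornithine decarboxylase, the product of Odc1, makes putrescine from ornithine, and spermidine synthase (Srm) and spermine synthase (Sms) extend it with groups donated by decarboxylated S-adenosylmethionine, which is made by the enzyme encoded by Amd1. Antizymes (Oaz1, Oaz2) bind ornithine decarboxylase and send it to the proteasome, the antizyme inhibitor (Azin1) binds antizyme in its place, and Sat1, Smox and Paox take the polyamines apart again. The male mouse kidney is known for abundant, androgen-induced Odc1 transcript in proximal tubules.

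The antizyme transcripts carry a feature that ties their translation to polyamines: the ribosome has to change its reading frame at a stop codon, which polyamines favour. This site is shown for both antizyme genes measured here, read from GENCODE vM21 transcripts, with the codon before the shift and the stop codon in capitals.
Oaz1: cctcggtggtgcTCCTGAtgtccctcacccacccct
Oaz2: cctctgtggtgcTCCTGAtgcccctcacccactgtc
The stretches are 36 bases long and share 30 of them, with the capital letters identical in both. RNA counts such as these see the transcript and not this step of translation.

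The stretch before the start site is shown for Odc1, the member with the largest measured difference, and for Smox, a member that differed in the other direction. Both are from the RefSeq promoter table on GRCm38.p6, plus strand, the 250 bases before the start site, with each GGGCGG or its reverse complement (the GC box) in capitals.
Odc1, chr12:17544623-17544872: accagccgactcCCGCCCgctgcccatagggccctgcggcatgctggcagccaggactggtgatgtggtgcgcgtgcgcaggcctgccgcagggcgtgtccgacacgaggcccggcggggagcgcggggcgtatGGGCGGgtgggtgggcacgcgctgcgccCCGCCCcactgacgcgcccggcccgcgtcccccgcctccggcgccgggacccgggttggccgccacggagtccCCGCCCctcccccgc
Smox, chr2:131491612-131491861: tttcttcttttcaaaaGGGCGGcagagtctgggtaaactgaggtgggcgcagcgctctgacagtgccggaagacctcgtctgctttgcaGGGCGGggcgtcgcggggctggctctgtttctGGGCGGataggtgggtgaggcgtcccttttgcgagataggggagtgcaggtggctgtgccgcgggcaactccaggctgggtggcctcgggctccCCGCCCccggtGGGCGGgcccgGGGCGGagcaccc
The Odc1 stretch was 80.0% G and C with 4 GC boxes, and the Smox stretch 68.0% with 6. The table's windows, 250 bases before to 50 after a start site, were searched on both strands. In them 8 of the 10 genes were present, Sms and Paox with 2 windows each. A GC box was in 7 of these 8 genes, or 8 of their 10 windows, against 35.7% of all 32851 windows. The E-box CACGTG, the letters bound by Myc and Max, was in 1 of the 10 windows (Sms) and in 7.15% of all windows. TATAAA was in 1 (Oaz1; 13.6% of all), CCAAT in 2 (Oaz1 and Sms; 37.4%), TGACNNNGC, the core of the antioxidant response element, in 2 (Oaz1 and Smox; 12.4%), and the cAMP response element TGACGTCA in 0 (1.79%). The last pair share the letters TGAC. These matches describe letters and not sites in use.

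The deposited tables held 19408534 to 26292760 expected counts per library, the fewest in nanoplastic 3. Levels are given below as CPM, the read count scaled to a common library size after TMM correction for composition, or, between genes, as the deposited TPM, which also allow for transcript length. The quasi-likelihood test of edgeR covered 18092 genes, of which 0 passed a Benjamini-Hochberg adjusted p of 0.05, and 1342 had an unadjusted p under 0.05. DESeq2, run on 31316 genes without that filter on low counts, called 55. Kidney was recognisable in every library from its segment markers, and the adrenal cortex markers summed to at most 0.2 CPM. Adipocyte markers, 7 genes led by Cfd and Adipoq, summed to 28.1 CPM in vehicle 3 and 110.4 CPM in nanoplastic 1, against 0.1 to 0.9 CPM in the other 4 libraries. Nanoplastic 1 also stood apart in urothelial markers (17.4 CPM against 1.7 to 5.5 CPM in the other 5 libraries), principal cell markers (298.5 against 183.8 to 203.7 CPM) and intercalated cell markers (106.4 against 142.0 to 166.9 CPM). Within the principal cell list Aqp2 alone measured 148.7 CPM in nanoplastic 1 and 43.3 to 61.7 CPM in the other 5 libraries. Avpr2 was also highest in nanoplastic 1 (17.1 CPM), whereas Scnn1b was lowest there (31.1 CPM). The 12 immediate early genes, Fos and Jun among them, summed to 236.8 CPM in vehicle 2 and 91.7 to 122.9 CPM elsewhere.

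Per transcript length Odc1 was the most abundant of the 10, with a median of 406.9 TPM over the 6 libraries (305.1 to 492.0). Oaz1, which encodes the main antizyme, followed at 165.2 TPM (153.2 to 178.6), and Sat1, the spermidine and spermine acetyltransferase, at 115.8 TPM (112.0 to 117.6). Oaz2 and Azin1 lay at 29.5 TPM (25.3 to 32.1) and 27.3 TPM (23.0 to 32.1), and these neighbours overlapped. Next came Amd1 at 14.1 TPM (12.3 to 15.4), Sms at 10.4 TPM (9.80 to 12.2) and Srm at 3.00 TPM (2.82 to 3.57). The flavin-dependent oxidases were lowest, Paox at 1.82 TPM (1.56 to 2.06) and Smox at 1.565 TPM (1.17 to 2.04), and did not differ beyond their spread. All other neighbours in this order were separated in the 6 libraries. The first enzyme thus stood 136-fold above spermidine synthase and 39.1-fold above spermine synthase in median TPM. A pair of short RNA genes took 55.5% to 59.4% of the TPM, so the TPM of all other genes scale with what is left.

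**Figure D1:**
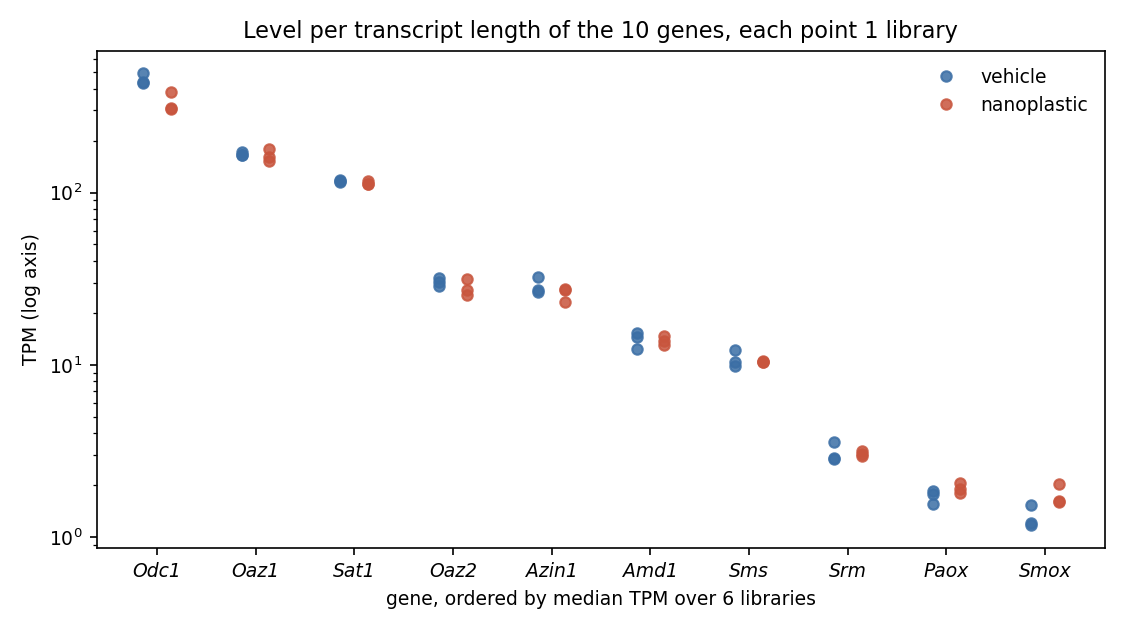
TPM of the 10 polyamine genes on a log axis, each point 1 library (blue vehicle, red nanoplastic), ordered by the median over 6 libraries. Odc1 lies highest, at 305.1 to 492.0 TPM, and Smox and Paox lowest, near 2 TPM.

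The comparison of nanoplastic with vehicle asks which kidney transcripts differ after the exposure. In CPM, Odc1 transcript was lower in all 3 nanoplastic kidneys than in any vehicle kidney, with a fitted change of -29.8%. On the same scale Smox and Paox were higher in all 3. None of the 10 genes passed the adjusted test, in which 0% of all genes were called. At an unadjusted p under 0.05 stood 2 of the 10, Odc1 and Oaz2, both lower, where 7.42% of all genes did so in either direction with 3.61% in the lower and 3.80% in the higher one. In 5 of the 10 (Odc1, Azin1, Oaz2, Smox and Paox) the groups did not overlap in TMM-scaled CPM, as in 12.9% of all genes. In the deposited TPM the groups overlapped for Azin1, Oaz2 and Paox and were separate for Odc1 and Smox. The fold change was negative in 8 of 10, against 48.0% of all genes, and the median log2 fold change was -0.09 against 0.01 over all genes tested.

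The count of 2 genes at an unadjusted p under 0.05 depended on single libraries. It was 1, Odc1 alone, without vehicle 2 or without nanoplastic 1, and 4 (Odc1, Sms, Smox and Paox) without vehicle 1. Without both libraries that carried adipocyte transcripts it was 1, again Odc1.

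**Figure D2:**
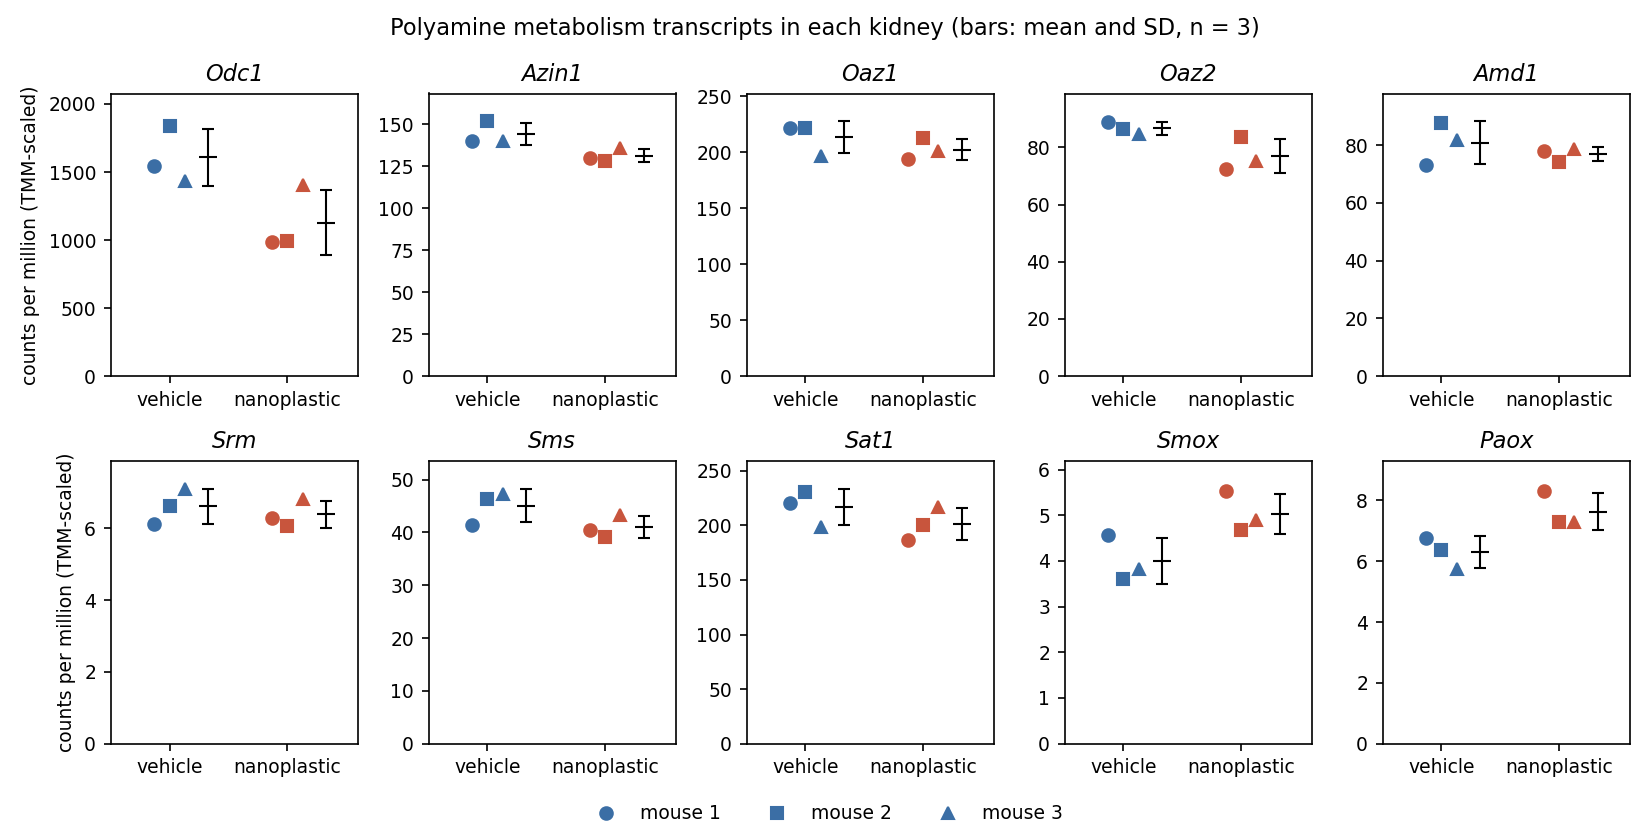
TMM-scaled CPM of each gene in each mouse (circle, square and triangle for mice 1, 2 and 3 of a group, which are not pairs), with mean and SD beside the points. The groups separate in Odc1, Azin1, Oaz2, Smox and Paox and overlap in the other 5.

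Odc1 measured 1548, 1840 and 1435 CPM in vehicle mice 1, 2 and 3, and 988.3, 992.0 and 1407 CPM in nanoplastic mice 1, 2 and 3. Nanoplastic 1 and 2 were far below every vehicle mouse, whereas nanoplastic 3 lay only 28.9 CPM, or 2.01%, below vehicle 3. The means were 1608 ± 209 and 1129 ± 240 CPM (SD, n = 3 each). In edgeR's quasi-likelihood fit the log2 fold change was -0.51 (SE 0.14, 95% interval -0.82 to -0.20), with an unadjusted p of 0.00444 and an adjusted p of 0.501. On the linear scale the interval ran from -43.5% to -12.7%. By p Odc1 ranked 153 of 18092, so 0.840% of genes had a lower p. Counting error is small here, since each library held 23762.76 to 42447.95 Odc1 counts, and the spread is that between libraries, each from 1 mouse. These expected counts were fractional in every library, and near copies of Odc1 were not searched for.

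The direction for Odc1 was the same under all 16 alternatives of processing or of libraries, with log2 fold changes from -0.70 to -0.40, unadjusted p values from 9.28e-05 to 0.0270 and adjusted p values from 0.124 to 0.9995. The largest difference was seen without nanoplastic 3 (-0.70, edgeR adjusted p = 0.124) and the smallest without vehicle 2 (-0.40), the library with high immediate early genes and the highest Odc1. Odc1 is itself known as an early response gene, and the part of that list in its value was not tested. Without vehicle 3 and nanoplastic 1 the log2 fold change was -0.49.

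Other kidney transcripts were lower in the same libraries. The 6 markers of the proximal S3 segment, the straight end part of the proximal tubule, summed to 3446, 3602 and 2995 CPM in the vehicle libraries and 2332, 2790 and 2895 CPM in the nanoplastic ones, so these sums did not overlap either. All 6 had a negative log2 fold change, 4 of them with an unadjusted p under 0.05: Slc22a7 (-0.68, SE 0.14), an organic anion transporter, Acsm3 (-0.47, SE 0.12), a medium-chain acyl-CoA synthetase, Slc22a19 (-0.43, SE 0.13) and Cyp7b1 (-0.33, SE 0.10), an oxysterol hydroxylase. Slc7a13, an amino acid transporter of that segment, had -0.12 (SE 0.09), and the 6 markers of the S1 and S2 segments summed to 13624 to 14371 CPM in vehicle and 12074 to 14447 CPM in nanoplastic libraries. Of the other marker lists, 6 genes of dividing cells summed to 23.5 to 24.0 CPM in vehicle and 15.1 to 15.7 CPM in nanoplastic libraries, and 7 macrophage genes to 106.0 to 115.3 and 97.0 to 102.7 CPM. All genes of both lists had a negative fold change. An unadjusted p under 0.05 was reached by 3 of the 6 dividing cell genes and 1 of the 7 macrophage genes. All 5 erythroid genes had a negative fold change and an unadjusted p under 0.05 (median log2 fold change -0.49). The 5 fibroblast genes were all negative (median -0.27), 2 of them with an unadjusted p under 0.05. The erythroid and fibroblast sums overlapped between the groups. Beside these counts and that of the S3 markers, 3.61% of all genes were lower at an unadjusted p under 0.05. Neutrophil markers, 5 genes of which 1 was tested, summed to 0.340 to 0.662 CPM in vehicle and 0.751 to 1.09 CPM in nanoplastic libraries. The part of these transcripts in the Odc1 value was not tested. In whole kidney, fewer cells of a type and less RNA per cell cannot be told apart.

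**Figure D3:**
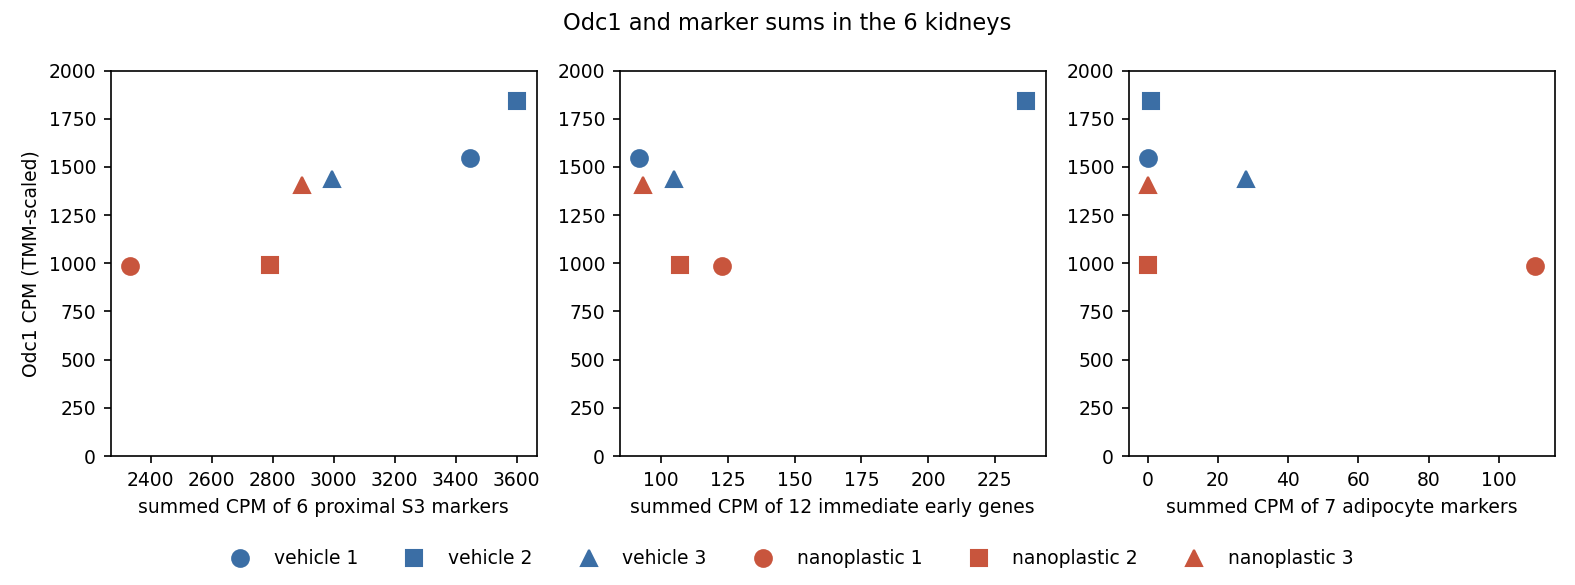
Odc1 CPM (y axis, from 0) against the summed CPM of 6 proximal S3 markers, 12 immediate early genes and 7 adipocyte markers in the 6 libraries, blue for vehicle and red for nanoplastic. Vehicle 2, with 236.8 CPM of immediate early genes, has the highest Odc1. Nanoplastic 1, with 110.4 CPM of adipocyte markers, has the lowest (988.3 CPM). Nanoplastic 2, with 0.1 CPM of these markers, lies close to it (992.0 CPM of Odc1).

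Genes that answer to androgen in the mouse kidney gave mixed values. Of 6 listed, all tested, 5 had a negative fold change and 2 an unadjusted p under 0.05. These 2 were lower, as were 3.61% of all genes at that level. In none of the 6 were the groups separate. Gusb, the lysosomal beta-glucuronidase, measured 41.3, 43.9 and 32.3 CPM in vehicle mice and 28.6, 36.0 and 27.8 CPM in nanoplastic mice (log2 fold change -0.34, SE 0.13). Slco1a1, an organic anion transporter, measured 825.9 ± 80.1 and 678.3 ± 110 CPM (SD, n = 3 each; -0.28, SE 0.12). Kap, the abundant kidney androgen-regulated protein, had -0.15 (SE 0.15), and Cyp4b1, a cytochrome P450, -0.02 (SE 0.11).

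Among the regulators of the decarboxylase, Azin1 measured 140.3, 151.8 and 140.2 CPM with water and 130.0, 128.2 and 136.0 CPM with nanoplastic. The groups were separated by 4.17 CPM, and vehicle 2 was again the highest. The log2 fold change was -0.13 (SE 0.06, 95% interval -0.27 to 0.00; edgeR unadjusted p = 0.0564, adjusted p = 0.682).

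Oaz2, an antizyme of lower abundance, measured 89.0, 86.3 and 84.6 CPM with water and 72.3, 83.8 and 75.3 CPM with nanoplastic. Nanoplastic 2 came within 0.850 CPM of the lowest vehicle mouse. The log2 fold change was -0.17 (SE 0.07, 95% interval -0.32 to -0.01; edgeR unadjusted p = 0.0362, adjusted p = 0.648), and the unadjusted p stayed under 0.05 in 9 of 16 alternatives. Oaz1 overlapped between the groups, with 221.8, 221.7 and 196.8 CPM with water and 193.8, 212.4 and 201.1 CPM with nanoplastic (log2 fold change -0.08, SE 0.07, 95% interval -0.23 to 0.08), and with 1 library left out it ran from -0.04 (without nanoplastic 1) to -0.13 (without vehicle 3). The processed pseudogene Oaz1-ps shares 79.7% of its 100-base windows with Oaz1 and held 3.35% to 4.04% of the counts of both, so the division between them is an estimate.

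The make-up of the set is given by shares. Odc1 took 53.5%, 57.1% and 53.7% of the summed TPM of the 10 genes in vehicle mice, and 46.1%, 44.2% and 52.7% in nanoplastic mice. Oaz1 took 21.4%, 19.2% and 20.1% against 24.2%, 25.9% and 21.1%, where nanoplastic 3 lay inside the vehicle range. Shares of the same sum are tied, so a lower Odc1 share raises the others. The TPM of Oaz1 itself was 167.5 ± 3.99 in vehicle and 164.6 ± 12.9 in nanoplastic mice (SD, n = 3 each). The Odc1 share did not overlap between the groups, with nanoplastic 3 again nearest to vehicle.

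For the enzymes that follow ornithine decarboxylase the groups overlapped in each case. Amd1, S-adenosylmethionine decarboxylase, ranged from 73.2 to 87.8 CPM with water and from 74.1 to 78.7 CPM with nanoplastic (log2 fold change -0.07, SE 0.08). All 3 nanoplastic mice lay within the vehicle range, and with 1 library left out the log2 fold change ran from -0.01 (without vehicle 2) to -0.14 (without vehicle 1). Its near copy Amd2 shares 72.9% of its 100-base windows with Amd1 and held 1.11% to 2.40% of the counts of both. Srm ranged from 6.12 to 7.10 CPM and from 6.05 to 6.81 CPM (-0.05, SE 0.13, 95% interval -0.33 to 0.23). Sms, spermine synthase, ranged from 41.5 to 47.4 CPM and from 39.2 to 43.3 CPM (-0.14, SE 0.08, 95% interval -0.31 to 0.03). The interval of Sms ran from -19.1% to 2.09% on the linear scale.

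The catabolic genes did not share 1 direction. Sat1, which acetylates spermidine and spermine for export or oxidation, measured 220.6, 231.0 and 199.0 CPM with water and 186.8, 200.3 and 216.9 CPM with nanoplastic. These values overlapped, and the log2 fold change was -0.11 (SE 0.08, 95% interval -0.28 to 0.06). It was -0.05 without nanoplastic 1 and -0.17 without vehicle 3.

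Smox, the spermine oxidase, measured 4.56, 3.60 and 3.82 CPM with water and 5.52, 4.68 and 4.89 CPM with nanoplastic. Nanoplastic 1 was the highest, and the gap between nanoplastic 2 and vehicle 1 was 0.116 CPM. Its log2 fold change was 0.33 (SE 0.16, 95% interval -0.02 to 0.68; edgeR unadjusted p = 0.0621, adjusted p = 0.685). At 83 to 136 counts per library, counting error takes a larger part in the spread of Smox than in that of Odc1.

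Paox, the peroxisomal oxidase of acetylated polyamines, measured 6.78, 6.37 and 5.74 CPM with water and 8.32, 7.31 and 7.28 CPM with nanoplastic. Its groups were separated by 0.500 CPM, and the log2 fold change was 0.28 (SE 0.13, 95% interval -0.00 to 0.56; edgeR unadjusted p = 0.0513, adjusted p = 0.674). Without vehicle 3 and nanoplastic 1 the log2 fold change was 0.15 for Paox and 0.22 for Smox. On the log2(TPM + 1) scale, where low genes are compressed and length enters, Paox had 0.10 and Smox, lower still in TPM, 0.26. The TPM of Paox overlapped between the groups, at 1.56 to 1.84 with water and 1.80 to 2.06 with nanoplastic.

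**Figure D4:**
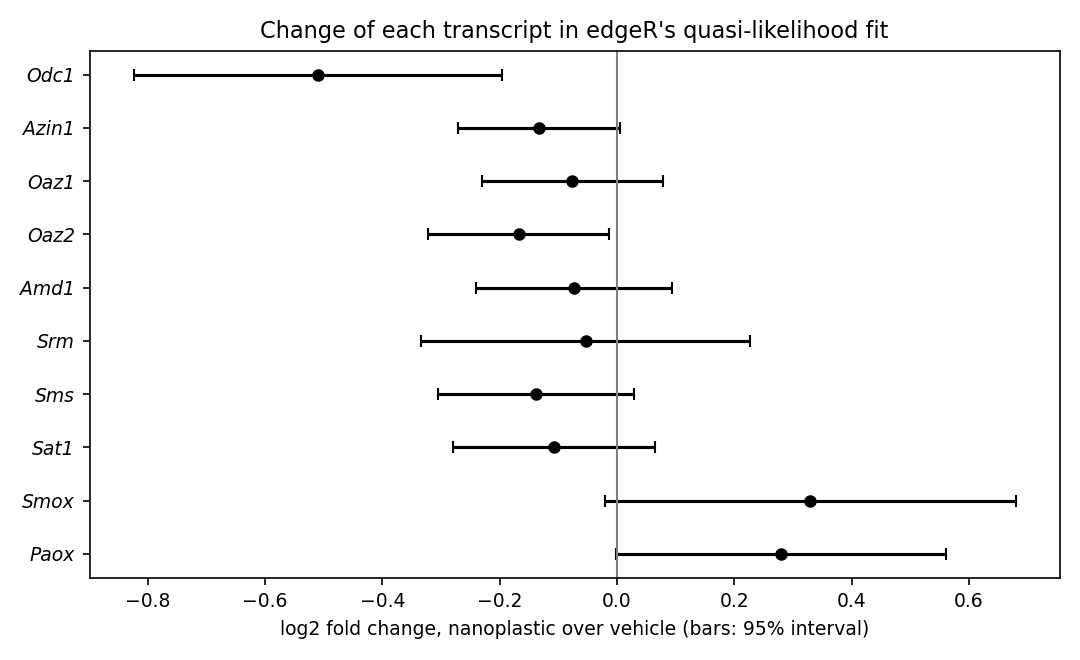
Log2 fold change of nanoplastic over vehicle for the 10 genes, with 95% intervals from edgeR's quasi-likelihood fit. The intervals of Odc1 and Oaz2 lie below 0, and those of Smox and Paox have their lower ends just below 0.

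The 7 lists of connected genes were read from the same fit: supply of arginine and ornithine, methionine and S-adenosylmethionine with the salvage of methylthioadenosine, polyamine transport, breakdown of acetylated polyamines and diamines, hypusination of eIF5A, other antizyme and decarboxylase turnover genes, and transcriptional regulators. Of their 70 genes 63 were tested, 34 with a positive and 29 with a negative fold change. No connected gene passed the adjusted test. In 7 of the 63 the groups did not overlap in CPM, against 12.9% of all genes. Apip, Sat2, Eif5a, Psmd1 and Mnt were among these 7. At an unadjusted p under 0.05 there was 1, or 1.59%, against 7.42% of all genes, and the median log2 fold change was 0.01, as over all genes.

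That gene was Apip, the dehydratase of the methionine salvage pathway that recycles the methylthioadenosine left by spermidine and spermine synthesis. It measured 10.4 ± 1.14 CPM with water and 8.12 ± 0.204 CPM with nanoplastic (SD, n = 3 each; log2 fold change -0.36, SE 0.12, unadjusted p = 0.0113 in edgeR), and the groups did not overlap. Mat2a, the S-adenosylmethionine synthetase of extrahepatic tissue, had -0.16 (SE 0.08). Mtap, which splits methylthioadenosine, had -0.07 (SE 0.08). The most abundant of the 15 genes of that list were Ahcy at 99.2 TPM and Mat2a at 75.3 TPM.

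In the supply of ornithine, 8 of 13 tested genes had a positive fold change. Slc7a2, a cationic amino acid transporter, had 0.23 (SE 0.12) and Gatm, which uses arginine to make the precursor of creatine, -0.14 (SE 0.07), the pair with the lowest p. Arg2, the mitochondrial arginase that releases ornithine, was at 1.05 TPM and had -0.22 (SE 0.23). Ass1 and Gatm were the most abundant, at 568.7 and 85.3 TPM.

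Polyamine transport genes had 3 positive and 5 negative fold changes among 8 tested. Slc18b1, a vesicular polyamine transporter, had -0.23 (SE 0.13), and Atp13a3, a P5B-type ATPase of polyamine uptake, -0.11 (SE 0.07). Slc47a1, an organic cation exporter, was the most abundant at 149.4 TPM. Atp13a4 and Atp13a5 had no count in any library.

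In the breakdown list 10 of 11 genes were tested, and Sat2, a paralog of Sat1, had the lowest p (log2 fold change 0.25, SE 0.11; unadjusted p = 0.0509 in edgeR). Its groups did not overlap, at 9.38 ± 1.04 and 11.2 ± 0.642 CPM (SD, n = 3 each). Maoa, a monoamine oxidase, had 0.13 (SE 0.13), and Aoc1, the diamine oxidase that degrades putrescine, -0.06 (SE 0.30). Aldh7a1 and Aldh9a1, aldehyde dehydrogenases, were the most abundant at 67.5 and 47.6 TPM.

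Hypusination, the transfer of a spermidine-derived group to eIF5A, had 4 tested genes and none with an unadjusted p under 0.05. Eif5a, the acceptor protein and the most abundant at 67.2 TPM, measured 145.5 ± 2.92 and 135.0 ± 4.22 CPM (SD, n = 3 each) without overlap (log2 fold change -0.11, SE 0.06). Eif5a2 had 0.23 (SE 0.13), Dohh -0.14 (SE 0.09) and Dhps, deoxyhypusine synthase, -0.05 (SE 0.15). Of the turnover genes, Psmd1, a subunit of the proteasome that degrades ornithine decarboxylase, had -0.13 (SE 0.06) and Azin2, another antizyme inhibitor, 0.19 (SE 0.16). Psmd4 and Nqo1 were the most abundant of that list, at 36.5 and 25.8 TPM.

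Among transcriptional regulators 8 of 10 had a positive fold change, and none had an unadjusted p under 0.05. Mnt, a Max-binding repressor, had 0.19 (SE 0.12) and Mycl 0.52 (SE 0.32), the pair with the lowest p. Myc, which induces Odc1 in many cells, had 1.08 ± 0.450 CPM with water and 1.33 ± 0.698 CPM with nanoplastic (SD, n = 3 each; log2 fold change 0.32, SE 0.41). Nfe2l2 and Mxi1 were the most abundant, at 15.8 and 10.9 TPM.

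**Figure D5:**
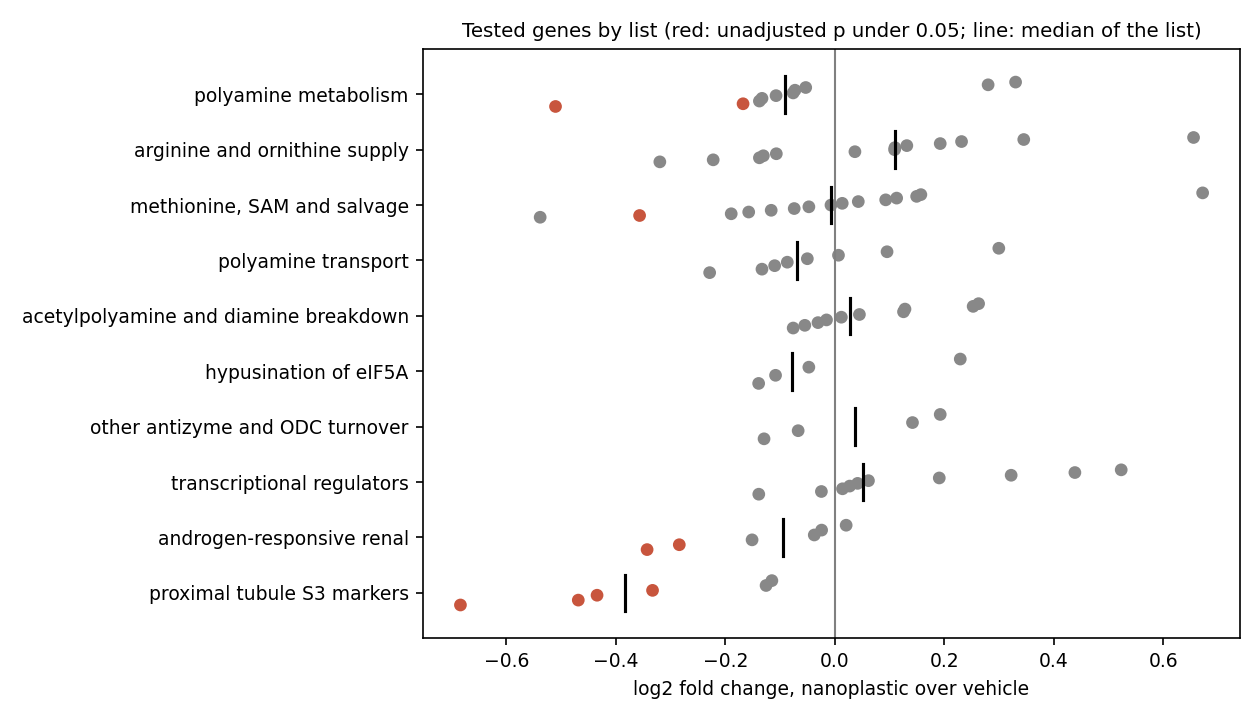
Log2 fold change of each tested gene by list, with the list's median as a line and genes with an unadjusted p under 0.05 in red. Among the 7 connected lists only Apip is red, while Odc1 and Oaz2 are red in the polyamine list, 2 of 6 genes in the androgen-responsive list and 4 of 6 in the proximal S3 list.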

How the data were processed

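Kidney RNA of 3 vehicle and 3 nanoplastic mice was analysed. Reads were handled with STAR 2.7.9a and RSEM 1.3.3 on GRCm39, with trimming by Trim Galore 0.6.6 and FastQC also named, per the submitters' processing notes. Neither the annotation release nor the strand setting is given in the sources used here. Per the file headers, the authors deposited expected counts without normalization. TPM and FPKM were also deposited by the authors, and FPKM was not used. The deposited length columns give each gene's length weighted by isoform share.

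The 10 genes and all gene lists were chosen with earlier results of these data known. Symbols came from GENCODE vM21 by gene identifier (51884 of 57180 matched), a release on another build. Expected counts were rounded, scaled by TMM after the filterByExpr filter on low counts, and compared by the quasi-likelihood test of edgeR 4.0.16 (bias-adjusted fit, group as the only term, two-sided) in R 4.3.3, with Benjamini-Hochberg adjustment over 18092 genes at 0.05. Standard errors are the log2 fold change over the root of F. Intervals cover counting error and variation between libraries, each from 1 mouse. The named genes were the 10 members, and of each connected list those with an unadjusted p under 0.05, the 2 with the lowest p and the 2 highest by TPM; other genes of a list are named for their role and were chosen after their values were seen. A gene that this rule takes is not reported here. Alternatives used DESeq2 1.42.0, limma 3.58.1 (voom, and log2(TPM + 1)), other scaling, no filter, left-out libraries and a replicate block. The fit was tested on simulated data.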

Additional observations from a re-analysis of the deposited data

How the results depend on the processing

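Under the alternatives the number of genes past an adjusted p of 0.05 was 55 with DESeq2 (19 higher, 36 lower), 3 with a robust edgeR fit and 30 without vehicle 3 and nanoplastic 1, and from 0 to 10 with 1 library left out (10 without nanoplastic 1, 1 without vehicle 3, 1 without nanoplastic 3). At an unadjusted p under 0.05 it was 762 without vehicle 2 against 1342. The number of polyamine genes past the adjusted threshold was 0 under each of the 16 alternatives, and at an unadjusted p under 0.05 it ranged from 1 to 4. The robust fit, the earlier edgeR method and the fit without vehicle 3 and nanoplastic 1 were chosen after seeing the data. Each of the 10 genes kept the sign of its log2 fold change in 16 of 16 alternatives, except Srm, which was 0.01 without vehicle 3 and nanoplastic 1. Same-numbered libraries were not shown to be pairs: the correlations of their deviations from the group means were 0.04, -0.02 and 0.10. With the replicate block 0 genes and 0 polyamine genes passed, 1408 genes had an unadjusted p under 0.05, and Odc1 had -0.52. Counts per library were lowest for Smox (83 to 136), Srm (131 to 167) and Paox (135.18 to 204.71).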

Other observations

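RSEM gives each gene a length weighted by the estimated share of its isoforms, a readout that the fold change does not use. For Paox, with 5 listed transcripts, it ran from 1975 to 2165 bases in vehicle and from 2162 to 2650 bases in nanoplastic libraries. This was the widest shift of a group mean among the 10 genes (2061 ± 96.4 and 2333 ± 275 bases, SD, n = 3 each), and the groups overlapped. The shift rested largely on nanoplastic 1, at 2650 bases, against 2162 and 2186 bases in nanoplastic 2 and 3. For Azin1, with 9 transcripts, the length ran from 2595 to 2874 and from 2787 to 3101 bases. Odc1, with 8 transcripts, stayed between 1993 and 2005 bases in all 6 libraries. In none of the 10 genes were the groups separate by this length, and no test was run.

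Of 9236 other genes with a mean of at least 10 CPM, those whose log2 CPM followed Odc1 most closely over the 6 libraries were Dhx15, an RNA helicase (r = 0.995), Clrn3, a clarin membrane protein (r = 0.994), and Ergic3, a protein of traffic between endoplasmic reticulum and Golgi (r = 0.993). Their log2 fold changes were -0.10 (SE 0.06), -0.25 (SE 0.09) and -0.08 (SE 0.06). With 6 libraries 81 of the genes reached an r over 0.95, so the order at the top is a description of these libraries.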
